A study of Mus musculus with 96 samples.

Results

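The 12 naive mouse embryonic stem (ES) cells with the highest level of 3 replication genes, Mcm2, Mcm4 and Cdc6, were compared with the 12 naive cells with the lowest. Cells with Gata6, a transcription factor of primitive endoderm, under 20 CPM (a gene's reads scaled to a common cell total) counted as naive, which held for 35 of 48 cells. Each cell then received a score, the mean over the 3 genes of log2(CPM + 1) after each gene had been centred and scaled over the 35 cells. The 24 cells at the ends of this ranking are called high and low cells, and the 11 between them middle cells. Both sets were thus chosen by measured values. The levels of the 3 genes are therefore no finding, and every value of the comparison is a description with no test.

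All 48 cells were J1 ES cells at passage 12 to 20, a male mouse line, kept feeder-free in medium with serum and LIF, the cytokine that holds ES cells in self-renewal. They form 1 group with no treatment or genotype contrast, and the labels name no separate culture. Single cells were captured on a microfluidic chip and their amplified cDNA was sequenced on 2 lanes, which gave 96 libraries. The lanes of the 24 cells agree within sampling noise, with a chi-square index (1 under sampling noise alone) of 0.971 to 1.03, and were summed. The labels name no stain or sort for the cell cycle, so a cell's phase was not measured on its own.

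In dividing cells, the MCM helicase is loaded onto replication origins in G1 by the origin recognition complex with Cdc6 and Cdt1. It is switched on in S phase by Cdc7 and CDK2 kinases together with Cdc45, the GINS complex and Mcm10. Many of these genes are transcribed in a wave at the G1-S transition under E2F transcription factors, which the retinoblastoma protein holds in check. Mouse ES cells have a short G1 phase and keep CDK2 active through much of the cycle, and E2F target genes are known to be less periodic in them than in somatic cells.

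The promoters of the score genes and of their relatives in the helicase are shown because E2F sites are the textbook link among these genes. Of the 3 score genes, Mcm2 and Cdc6 had a window in the RefSeq promoter table (build GRCm38.p6). Below are the 250 bases before the start site of these and of Mcm10, on the gene's own strand, 5′ to 3′, with a match to an E2F motif in capitals.
Mcm2 (chr6:88898781-88899030, minus strand): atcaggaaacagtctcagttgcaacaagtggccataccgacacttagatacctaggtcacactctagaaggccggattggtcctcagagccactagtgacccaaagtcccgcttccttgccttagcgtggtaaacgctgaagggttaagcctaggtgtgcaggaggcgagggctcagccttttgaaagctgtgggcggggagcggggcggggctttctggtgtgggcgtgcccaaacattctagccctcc
Cdc6 (chr11:98907901-98908150, plus strand): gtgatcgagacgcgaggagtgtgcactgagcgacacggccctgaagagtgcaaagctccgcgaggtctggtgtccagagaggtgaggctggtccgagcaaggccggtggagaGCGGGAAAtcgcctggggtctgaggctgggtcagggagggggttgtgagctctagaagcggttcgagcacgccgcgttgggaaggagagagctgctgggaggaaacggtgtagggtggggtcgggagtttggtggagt
Mcm10 (chr2:5012792-5013041, minus strand): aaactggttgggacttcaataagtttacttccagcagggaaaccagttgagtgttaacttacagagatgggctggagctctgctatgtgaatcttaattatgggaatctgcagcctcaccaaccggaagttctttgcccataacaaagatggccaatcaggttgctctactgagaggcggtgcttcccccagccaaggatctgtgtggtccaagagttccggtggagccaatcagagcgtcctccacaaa
The E2F motif was searched as TTTCGCGC, TTTGGCGC, TTTCCCGC or TTTGGCGG on both strands, in windows from 250 bases before to 50 bases after the start. Cdc6 held 1 match, TTTCCCGC on the opposite strand, whose first base lay at position -138 from the start. Mcm2 and Mcm10 held 0 matches to these letters. Mcm2 held CCAAT at -175 and the cell-cycle homology letters TTTGAA at -70, while Mcm10 held CCAAT at -98, -23 and 32.

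The other members of the helicase core with a match, and the called G1-S genes with one, are shown as 30 bases around it, chosen after the matches were seen.
Mcm3 (chr1:20820275-20820304, minus strand): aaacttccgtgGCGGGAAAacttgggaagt
Mcm5 (chr8:75109345-75109374, plus strand): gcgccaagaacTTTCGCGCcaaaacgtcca
Mcm6 (chr1:128359797-128359826, minus strand): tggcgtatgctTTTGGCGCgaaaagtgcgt
Mcm7 (chr5:138172030-138172059, minus strand): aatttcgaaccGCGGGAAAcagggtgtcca
Casp8ap2 (chr4:32615283-32615312, plus strand): aagtaccagagTTTGGCGCcaactggaatc
Uhrf1 (chr17:56304117-56304146, plus strand): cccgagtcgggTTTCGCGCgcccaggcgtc
In Mcm5 and Mcm6 the capitals overlap a second match that reads on the opposite strand. Of 56 G1-S genes outside the score, 43 had at least 1 promoter window and 19 of them a match, in 39.6% of 48 windows. Over all 32851 windows of the table the share was 2.37%. It was 7.02% in 57 windows of G2-M genes and 0 of 24 windows of ribosomal protein genes. CCAAT was found in 60.4% of the G1-S windows, against 37.4% of all windows. The letters TTTGAA or TTCGAA were found in 16.7% of G1-S windows, 73.7% of G2-M windows and 19.2% of all windows.

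The score genes differed in how they made up the ranking. Mcm4, a helicase subunit, had 289 CPM in the lowest high cell, a median of 730 and 1119 in the highest, against 73.1, 173 and 528 CPM in the low cells. Cdc6 ran from 14.1 through a median of 187 to 555 CPM in high cells, and from 0 through 5.92 to 119 CPM in low cells. It reached 10 CPM in 12 high, 9 of 11 middle and 6 low cells, so 6 low cells lay under that level. Mcm2 overlapped the most: its range was 45.7 to 579 CPM with a median of 270 in high cells, and 18.9 to 555 CPM with a median of 103 in low cells. Each high cell was paired with each low cell, which makes 12 × 12 pairs. Of these, the high cell had more Mcm4 in 138, more Cdc6 in 130 and more Mcm2 in 107.

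Over the 35 cells, Mcm4 and Cdc6 levels had a Spearman correlation of 0.458 (Pearson 0.437). Mcm2 was related to neither, with 0.0420 to Mcm4 (Pearson 0.00338) and -0.232 to Cdc6 (Pearson -0.241). These correlations over cells share library depth and carry no p. The 3 genes therefore did not rank the cells alike. At the edge of the high set, the cell at rank 12 had a score of 0.252 with 45.7 CPM of Mcm2, 767 of Mcm4 and 161 of Cdc6. The cell at rank 13, just outside, had 0.247 with 247, 466 and 20.4 CPM. At the other end, rank 23 had -0.265 and rank 24, the first low cell, -0.426. Scores ran from 0.252 to 1.26 in high cells (median 0.607) and from -0.924 to -0.426 in low cells (median -0.727).

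**Figure D1:**
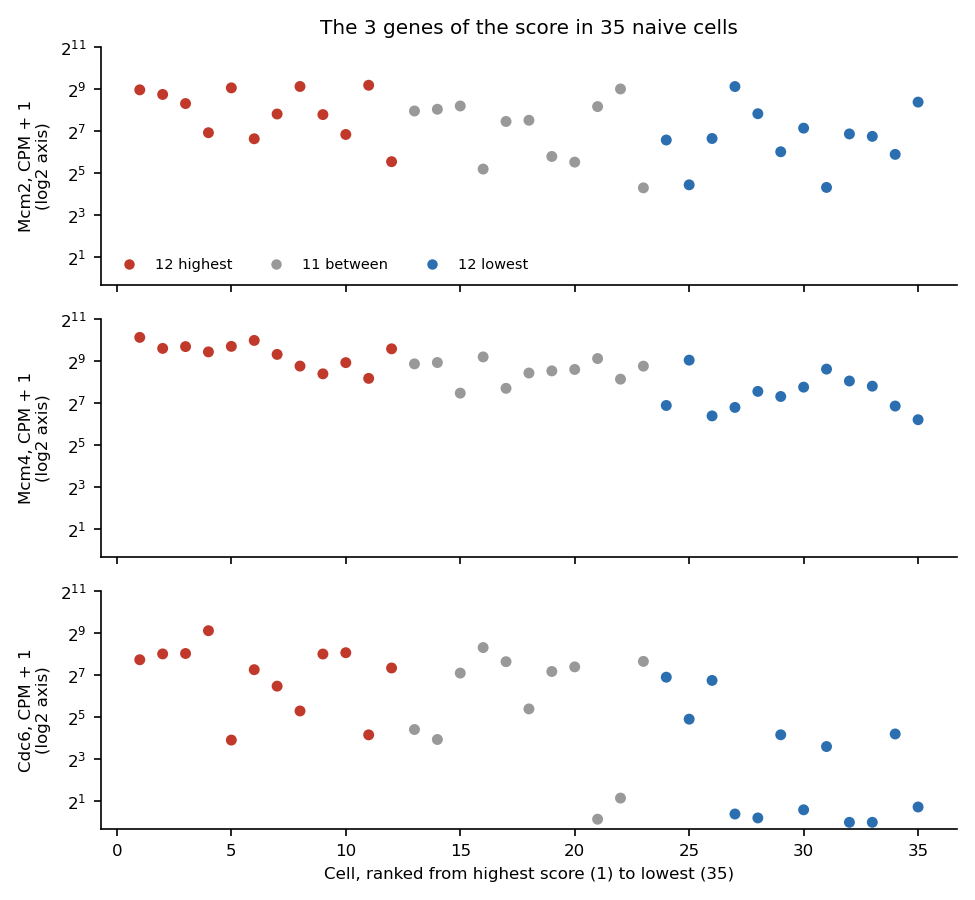
CPM + 1 on a log2 axis of Mcm2, Mcm4 and Cdc6, which made the score, in each of 35 naive cells ranked by it, with the 12 highest cells in red, 11 middle cells in grey and 12 lowest in blue. Mcm4 declines with rank, Cdc6 is under 10 CPM in 6 low and 2 middle cells, and Mcm2 scatters across the whole ranking.

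Depth and the number of genes read overlapped between the sets. High cells held 4408953 to 9767245 reads (median 6283804) and low cells 5600991 to 9122261 (median 6473547). A read fell on 8039 to 9612 genes in high cells (median 9293.5) and on 8299 to 9710 in low cells (median 8685). The high cell had more genes with a read in 88 of the pairs. The 50 top genes of a cell took 14.7% to 19.4% of reads in high cells (median 16.1%). In low cells they took 16.2% to 19.4% (median 16.7%), and the high cell had the lower value in 110 of the pairs. The share of reads from genes with transcripts under 1000 bases was lower in high cells, at 39.3% to 43.2% (median 40.6%) against 41.0% to 44.6% (median 42.7%). The high cell had the lower share in 125 of the pairs. The part of these library measures in the gene differences was not tested. Gata6 reached at most 1.36 CPM in the 35 cells, and 82.8 to 617 CPM in the 13 cells left out.

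Other genes were compared by the difference between the mean log2(CPM + 1) of high and of low cells. The mean read count over the 24 cells had to reach 10, which left 11269 genes besides the score genes. A gene was called where this difference was at least 1 and at least 75% of the cell pairs went the same way. In this way 140 genes (1.24%) were called higher and 95 (0.843%) lower in high cells. With TMMwsp scaling the split turned to 117 higher and 129 lower. A difference of at least 1 alone was reached by 1217 genes (10.8%) upward and 954 (8.47%) downward, and 75% of pairs alone by 172 (1.53%) and 166 (1.47%). No gene separated the sets in all pairs, the most being 137 for Manf.

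G1-S genes outside the score stood higher in high cells as a list, by a small amount. Of the 56, 6 were called higher (10.7%, beside 1.24% of all genes tested) and 0 lower. Among the 6 were Mcm10, Uhrf1, Rad51ap1, Casp8ap2 and E2f1. The difference was above 0 for 43 of 56 (76.8%, beside 52.2% of all genes tested), and its median was 0.45, beside 0.04 for all genes tested. Members ran from -1.22 for Brip1, a helicase partner of Brca1, to 2.11 for E2f1. The count of 6 fell to 3 without high cell 31 and grew to 11 without low cell 17. As the score genes belong to the same wave of transcription and the list was chosen with earlier results known, this count is no independent evidence.

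**Figure D2:**
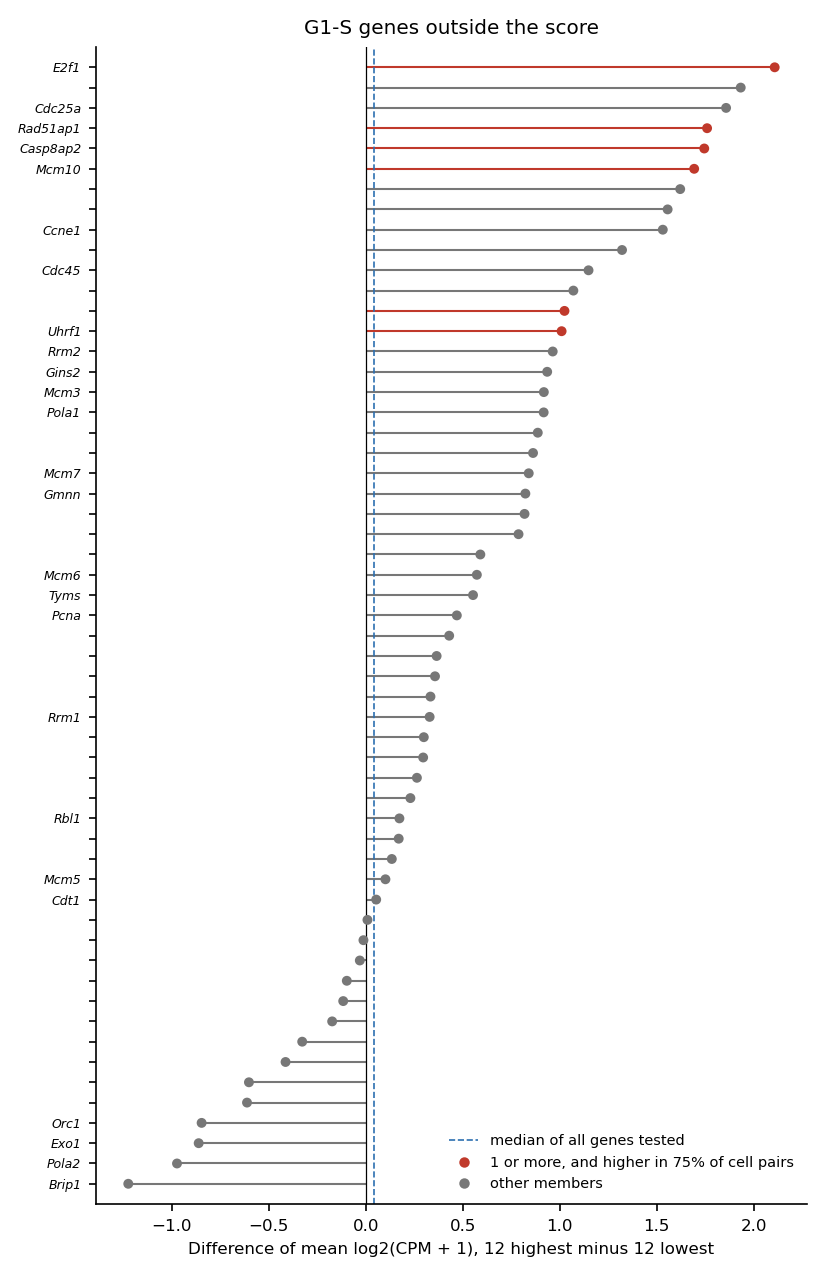
Difference of mean log2(CPM + 1), 12 high minus 12 low cells, for each of the 56 G1-S genes outside the score, with called genes in red and the median of all genes tested as a dashed line; some of the members are labelled by name. Of the 56 members 43 lie above 0, and the 6 called ones range from Uhrf1 at 1.01 to E2f1 at 2.11.

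The groups of replication genes are given by their counts, which stand beside 1.24% called higher and 52.2% above 0 of all genes tested. Mcm10 was the called gene of the helicase group. It ran from 41.5 through a median of 224 to 302 CPM in high cells, and from 0.381 through 121 to 358 CPM in low cells. The low cells spanned a wider range, reaching both lower and higher than any high cell. Middle cell 45 had the highest level of all naive cells, at 405 CPM. The difference between high and low cells was 1.69 (SD 0.76 in high and 2.66 in low cells, n = 12 each), with the high cell above in 113 of the pairs. Low cells 7 and 15 held only 0.381 and 0.623 CPM, and the difference between medians was 0.91. The Mcm10 call held in 13 of 19 alternatives. It ended with medians, with 8 or 17 cells per set, at 90% of pairs, and with Mcm2 or Cdc6 left out of the score. Over the pooled reads of each set Mcm10 had 209 CPM (exact Poisson 95% interval 206 to 213) against 121 (119 to 124). This interval covers counting error only.

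The remaining subunits of the helicase were not called. Mcm3 had 151 to 678 CPM with a median of 433 in high cells, and 21.7 to 585 CPM with a median of 298 in low cells (difference 0.92, 107 of the pairs). Mcm6 had 136 to 521 CPM with a median of 376, against 87.0 to 849 CPM with a median of 236 (0.57, 113 pairs). Mcm7 differed by 0.84 with 96 pairs, and Mcm5 by 0.10 with 80 pairs. These 4 subunits thus had a positive difference, also with TMMwsp or poscounts scaling, but their ranges overlapped and Mcm5 was nearly level. Of 17 genes for the helicase and its loading, 15 were above 0 with a median of 0.57. Of those that load it, Cdt1 stood at 0.05 and the origin subunit Orc6 at 0.48. The origin subunits Orc1 at -0.85 and Orc5 at -1.07 were the only 2 of the 17 below 0. Geminin (Gmnn), which blocks Cdt1 after S phase begins, had 181 to 585 CPM in high and 8.33 to 358 CPM in low cells (0.82, 112 pairs).

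Genes that fire the loaded origins had 0 of 11 called and 9 above 0, with a median of 0.63. Cdc45, which travels with the helicase, stood at 1.15 and Gins2 at 0.94. Gins4 had a median of 115 CPM in high and 109 CPM in low cells, at 0.27 with 78 pairs. Dbf4, the partner that activates Cdc7, went the other way: 12.7 to 327 CPM with a median of 106 in high cells, and 55.9 to 358 CPM with a median of 197 in low cells (-0.78, low cell above in 100 pairs). Polymerases, the clamp and its loader had 0 of 30 called, 21 above 0 and a median of 0.24. Within them Pcna, the sliding clamp, stood at 0.47 with 105 pairs, Pola1 at 0.92 and its partner subunit Pola2 at -0.97.

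Nucleotide synthesis had 0 of 17 called, 9 above 0 (52.9%) and a median of 0.06 (-0.02 with TMMwsp scaling). Its summed level, which weighs abundant genes most, had a median of 5887 CPM in high and 5215 CPM in low cells, with the high cell above in 109 of the pairs. Its member with the largest difference was Rrm2, the regulated subunit of ribonucleotide reductase. It had 517 to 2041 CPM with a median of 1186 in high cells, and 198 to 1394 CPM with a median of 596 in low cells. Its high cell was above in 121 of the pairs, more than for 5 of the 6 called G1-S genes, but its difference of 0.96 fell short of 1. Tyms and Rrm1 stood at 0.55 and 0.33.

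The E2F and retinoblastoma group held 2 called genes among 13 (15.4%, beside 1.24% of all genes tested), with 10 above 0 (76.9%, beside 52.2%) and a median of 0.19. E2f1 had 0 to 145 CPM with a median of 2.31 in high cells and 0 to 4.87 CPM with a median of 0.157 in low cells. It reached 10 CPM in 4 high, 4 middle and 0 low cells, so a few cells carried the difference, and the call ended without any 1 of 6 high cells (31, 48, 9, 10, 43 or 34). Rb1, the retinoblastoma gene, had 0.162 to 121 CPM with a median of 16.3 in high cells and 0 to 11.6 CPM with a median of 0.624 in low cells (2.88, 125 pairs). It reached 10 CPM in 7 high, 2 middle and 1 low cell. The Rb1 call held in 13 of 19 alternatives, but ended with any 1 score gene left out of the score. The Rb1 relatives Rbl1 and Rbl2 stood at 0.17 and -1.54. An E2F activator and the protein that restrains E2F thus both reached 10 CPM in more high than low cells.

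Cyclins and kinases of G1 had 0 of 16 called and a median of 0.45, with 12 above 0. Cdk4 was level, with medians of 493 and 496 CPM and 73 pairs. Cyclin E1 (Ccne1), which activates CDK2, had 4.08 to 336 CPM with a median of 117 in high and 0 to 278 CPM with a median of 35.4 in low cells (1.53, 97 pairs). Cdc25a, the phosphatase that frees CDK2, stood at 1.86 with 102 pairs, and cyclin D3 (Ccnd3) at 1.38 with 90 pairs. The inhibitor Cdkn1a (p21) stood at 0.39 and Cdkn1c at -1.31. None of these reached 75% of pairs.

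Among repair genes, 2 of 27 were called (7.41%, beside 1.24% of all genes tested), with 18 above 0 (66.7%, beside 52.2%) and a median of 0.49. With TMMwsp or poscounts scaling 1 of the 27 was called and 17 were above 0. Rad51ap1, a factor of homologous recombination, had 5.44 to 227 CPM with a median of 88.8 in high cells and 0.391 to 158 CPM with a median of 35.8 in low cells (1.76, 111 pairs). The nuclease Exo1 stood at -0.86.

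Of 20 genes for chromatin assembly and maintenance methylation, 1 was called and 10 were above 0, with a median of 0.07 (-0.02 with TMMwsp scaling). The called gene was Uhrf1, which reads hemimethylated CpG sites behind the fork and recruits Dnmt1. It had 256 to 952 CPM with a median of 591 in high cells, 112 to 534 CPM with a median of 415 in middle cells and 116 to 706 CPM with a median of 266 in low cells. It was above in 122 of the pairs at a difference of 1.01, so small shifts moved it below 1. The call ended with TMMwsp or poscounts scaling and without any 1 of 12 cells (31, 48, 9, 43, 30 and 21 of the high set, 26, 18, 7, 20, 5 and 1 of the low set). Ssrp1, a subunit of the FACT histone chaperone, was higher in 125 pairs at 0.83, and Dnmt1 stood at -0.01. Casp8ap2, a component of histone mRNA processing, had 77.2 to 518 CPM with a median of 239 in high cells and 3.30 to 290 CPM with a median of 79.6 in low cells (1.75, 116 pairs). In 6 low cells Casp8ap2 lay below every high cell. Cohesin genes had 0 of 13 called, 11 above 0 and a median of 0.37.

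G1-S genes with and without an E2F match in the promoter had similar differences. The 19 G1-S genes with a match had a median difference of 0.57, with 15 above 0 and 2 called. The 24 with a window and no match had 0.51, with 19 above 0 and 3 called, and the 13 with no window 0.33, with 9 above 0 and 1 called. A match is a stretch of letters, not a measured binding site.

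Each cell's mean log2(CPM + 1) over the 56 G1-S genes shows how far single cells followed the score. It was 5.26 to 6.97 in high cells (median 6.62), 5.43 to 6.96 in middle cells (6.46) and 4.82 to 6.67 in low cells (6.03). The high cell had the higher list mean in 109 of the pairs. High cells 31, 48, 9, 43 and 46 lay above all 12 low cells. High cell 44 lay above only 1 low cell, although it held 1011 CPM of Mcm4. Low cell 17 lay above 7 of the high cells. Middle cells were closer to high than to low cells by their median.

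Over the 35 cells the score and the G1-S list mean had a Spearman correlation of 0.498 (Pearson 0.510). Of the score genes, Mcm4 (0.519, Pearson 0.440) and Cdc6 (0.375, Pearson 0.462) went with the list mean, and Mcm2 hardly did (0.121, Pearson 0.0384). The list mean also went with the number of genes that had a read (Spearman 0.468) and against the ribosomal protein share (-0.518), measures of the library whose part in this was not tested. Cell 44 had the fewest genes with a read of the high cells, 8039, and their highest ribosomal protein share, 5.07%.

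**Figure D3:**
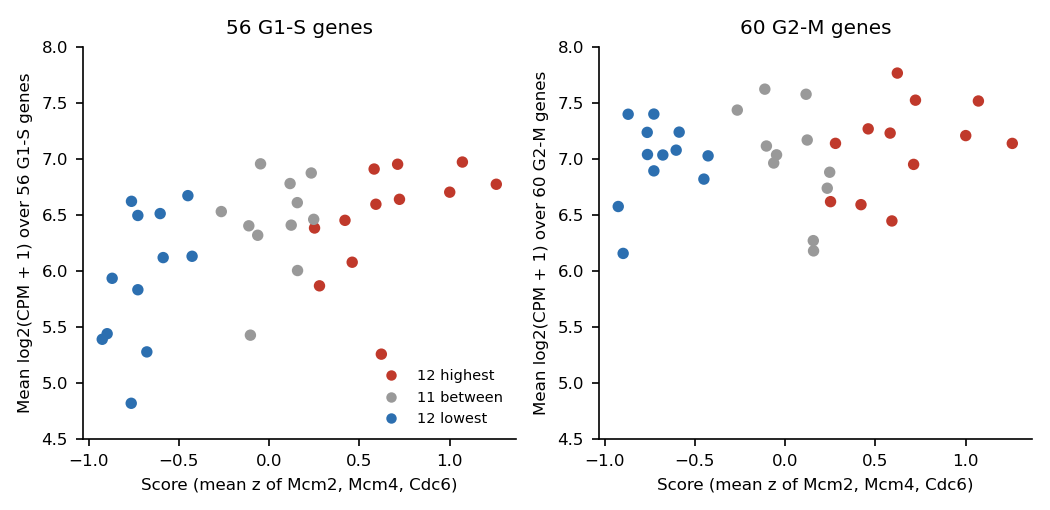
Mean log2(CPM + 1) over 56 G1-S genes outside the score (left) and over 60 G2-M genes (right) against the score, for 35 naive cells coloured by set. The G1-S mean follows the score with a Spearman correlation of 0.498 and cell 44 as the high cell at 5.26, whereas the G2-M mean does so with 0.132.

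G2-M genes had no called member. Of 59 tested, 0 were called higher and 0 lower, and 40 were above 0 (67.8%, beside 52.2% of all genes tested), with a median of 0.08. With TMMwsp scaling 29 were above 0 and the median was -0.0048, and with poscounts scaling these were 33 and 0.03. The list mean was 6.45 to 7.77 in high cells (median 7.17) and 6.16 to 7.40 in low cells (median 7.04), with the high cell above in 87 of the pairs. Top2a, the topoisomerase that untangles sister chromatids, had medians of 1291 and 1280 CPM. Members at the ends were scattered: the mitotic kinase Plk1 stood at 1.74 and the kinase activator Cdc25c at -2.16, each with wide ranges in both sets and neither with 75% of pairs. G1-S and G2-M list means were nearly unrelated over the 35 cells (Spearman 0.0754, Pearson 0.0639).

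The called genes that led by their share of pairs were mostly outside the replication lists. Cd276, an immune checkpoint ligand, had 0.157 to 147 CPM with a median of 60.1 in high cells and 0 to 3.89 CPM with a median of 1.32 in low cells. It reached 10 CPM in 10 high, 5 middle and 0 low cells (4.07, 127 pairs). Cep135, a centriole protein, reached 10 CPM in 7 high, 3 middle and 0 low cells (3.53, 129 pairs). Ssbp3, a cofactor of LIM-domain transcription complexes, had 22.4 to 205 CPM with a median of 94.8 in high and 0 to 146 CPM with a median of 18.6 in low cells. Rfwd3, a ubiquitin ligase that acts at stalled forks, had 23.7 to 255 CPM in high and 2.74 to 54.0 CPM in low cells (1.61, 125 pairs), with 9 high cells above every low cell. Gldc, the glycine cleavage enzyme, had medians of 225 and 57.3 CPM, with ranges of 1.25 to 400 and 0.170 to 288 CPM.

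Several of these leading genes were carried by part of the high cells. Brf1, a factor of RNA polymerase III, reached 10 CPM in 3 high, 3 middle and 0 low cells. Neil3, a DNA glycosylase, did so in 3 high, 4 middle and 1 low cell, and its highest value was 165 CPM in the middle cells against 83.6 CPM in the high cells. Neil3 thus did not follow the order of the sets, and it lost its call without high cell 34. Med26, a Mediator subunit, reached 10 CPM in 11 high, 5 middle and 4 low cells, and Ube2w, a ubiquitin-conjugating enzyme, in 11, 7 and 8. Together with Col4a1, Rb1 and Uhrf1 these make the 12 called genes with the largest share of pairs upward.

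Col4a1, a basement membrane collagen and a marker of primitive endoderm, had the most pairs of the called genes that were higher. It ran from 2.50 through 7.19 to 50.4 CPM in high cells and from 0.913 through 2.15 to 4.83 CPM in low cells (1.58, 134 pairs), a low level throughout. Of 16 primitive endoderm markers, 6 had enough reads, with 1 called and 5 above 0. Over all genes tested 1.24% were called higher and 52.2% were above 0. The summed level of the list was 41.9 to 856 CPM in high cells and 104 to 780 CPM in low cells, higher in the high cell in 48 of the pairs. The mean log2(CPM + 1) over the 16 markers, which weighs them alike, went the other way, with medians of 1.77 in high and 1.45 in low cells and the high cell above in 107 of the pairs. Gata6 stood at or under 1.36 CPM and Gata4 at or under 3.47 CPM in all 24 cells, and Foxa2 was at 0 in all of them. These markers were thus near 0 in both sets, Gata6 because the rule kept only cells low in it. Other markers of the list, Col4a1 among them, were read in both sets. Of 10 trophectoderm markers, 7 had enough reads and all 7 were above 0 (beside 52.2% of all genes tested), with 0 called and a median of 0.64. Their summed level was 0.782 to 607 CPM in high cells (median 90.9) and 4.19 to 237 CPM in low cells (median 28.6). Cdx2 was at 0 in all 24 cells. The part of trophectoderm-marker transcripts in the result was not tested.

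Manf and Esyt2 led the genes that were lower in high cells. Manf, a folding factor of the endoplasmic reticulum, had 0.626 to 147 CPM with a median of 77.8 in high cells and 85.9 to 515 CPM with a median of 213 in low cells. The low cell was above in 137 of the pairs (-2.20), and 10 low cells lay above every high cell. Esyt2, a tether between endoplasmic reticulum and plasma membrane, reached 10 CPM in 1 high, 6 middle and 8 low cells (-3.30, 133 pairs). Edf1, a sensor of collided ribosomes, had 14.6 to 129 CPM in high and 65.8 to 255 CPM in low cells (-1.21, 125 pairs). Ndufab1, the mitochondrial acyl carrier protein, had medians of 21.2 and 49.0 CPM (125 pairs). Its call ended without any 1 of 13 cells, as its difference stands at the minimum. Mocs2, Sra1 and Tmbim4 followed at -2.15, -1.59 and -1.85, each with the low cell above in 121 or 122 pairs.

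The rest of the 12 leading genes downward were mostly sparse. Faim, an inhibitor of Fas-induced death, reached 10 CPM in 3 high, 7 middle and 9 low cells. The citron kinase gene Cit, which acts in cytokinesis, did so in 1 high, 2 middle and 7 low cells, and Gtf3a, the factor for 5S RNA genes, in 0, 1 and 4. The loci Gm4975 and 9130011E15Rik reached it in 2 high cells each and in 8 low cells each. In the middle cells Manf (median 149 CPM) lay between the sets, while Gm4975 had at most 0.330 CPM there, below the median of the low cells.

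**Figure D4:**
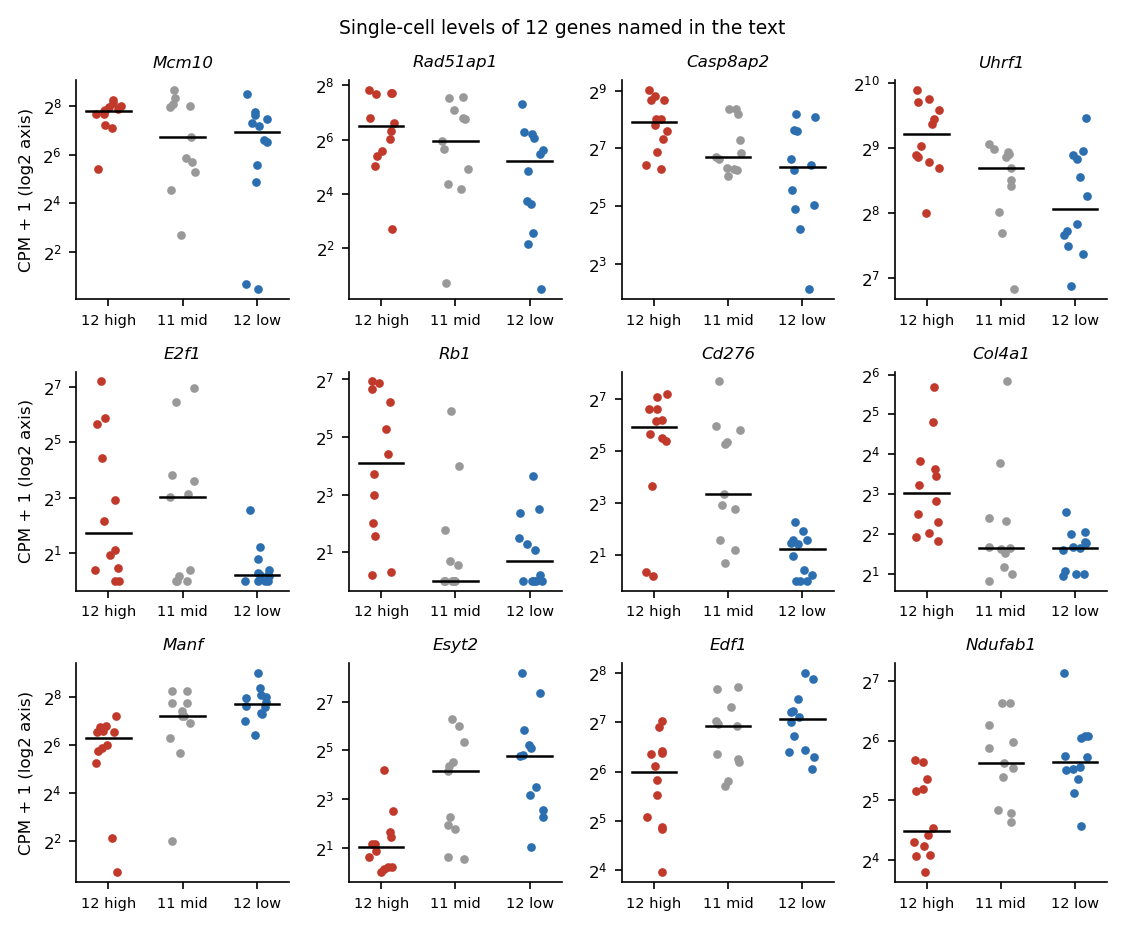
CPM + 1 on log2 axes of 12 genes in 12 high, 11 middle and 12 low naive cells, 1 point per cell, with the median as a bar; each panel has its own range. For Manf 10 low cells lie above all high cells. For Uhrf1 4 high cells lie above all low cells and the rest overlap with them. E2f1 and Cd276 differ in how many cells reach 10 CPM.

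Pluripotency genes did not separate the sets. The core list had 0 of 16 called, 6 above 0 and a median of -0.18. Pou5f1 had medians of 94.0 and 89.3 CPM, Sox2 of 76.7 and 86.3 and Nanog of 56.2 and 24.3, with 76, 61 and 83 pairs upward. High cell 37 held only 3.13 CPM of Pou5f1, and middle cell 35 held 7.60 CPM, although both counted as naive by Gata6. The naive list had 0 of 20 called, 12 above 0 and a median of 0.16. Its members spread widely, from Tbx3 at 2.50 with 103 pairs to Dppa3 at -1.65 with 57, and Zfp42 (Rex1) had 551 to 3770 CPM in high and 285 to 3061 CPM in low cells. Every cell of both sets thus held Zfp42, a marker of the naive state. Primed epiblast genes had 0 of 12 called and a median of 0.05 (-0.03 with TMMwsp scaling).

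Ribosomal protein genes were slightly but evenly lower in high cells. Of 30, 0 were called in either direction, yet 29 had a difference below 0, 30 with TMMwsp or poscounts scaling. The median was -0.19 and 7 members reached 75% of pairs downward. Rpl13 had 765 to 1176 CPM with a median of 921 in high and 870 to 2364 CPM with a median of 1427 in low cells (-0.64, low cell above in 135 pairs). The list took 3.73% of reads in high and 4.16% in low cells by the median. These genes have short transcripts, with a median of 705.75 bases. Differences moved with transcript length over all genes: their median was -0.11 in the shortest of 10 equal bins of genes and 0.20 in the longest, and genes called higher had a median length of 2176 bases, those called lower 1235. After centring by length the ribosomal median was -0.13 and 29 of 30 were below 0. Processed ribosomal pseudogenes are near-identical copies, so how reads were divided among them is uncertain.

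**Figure D5:**
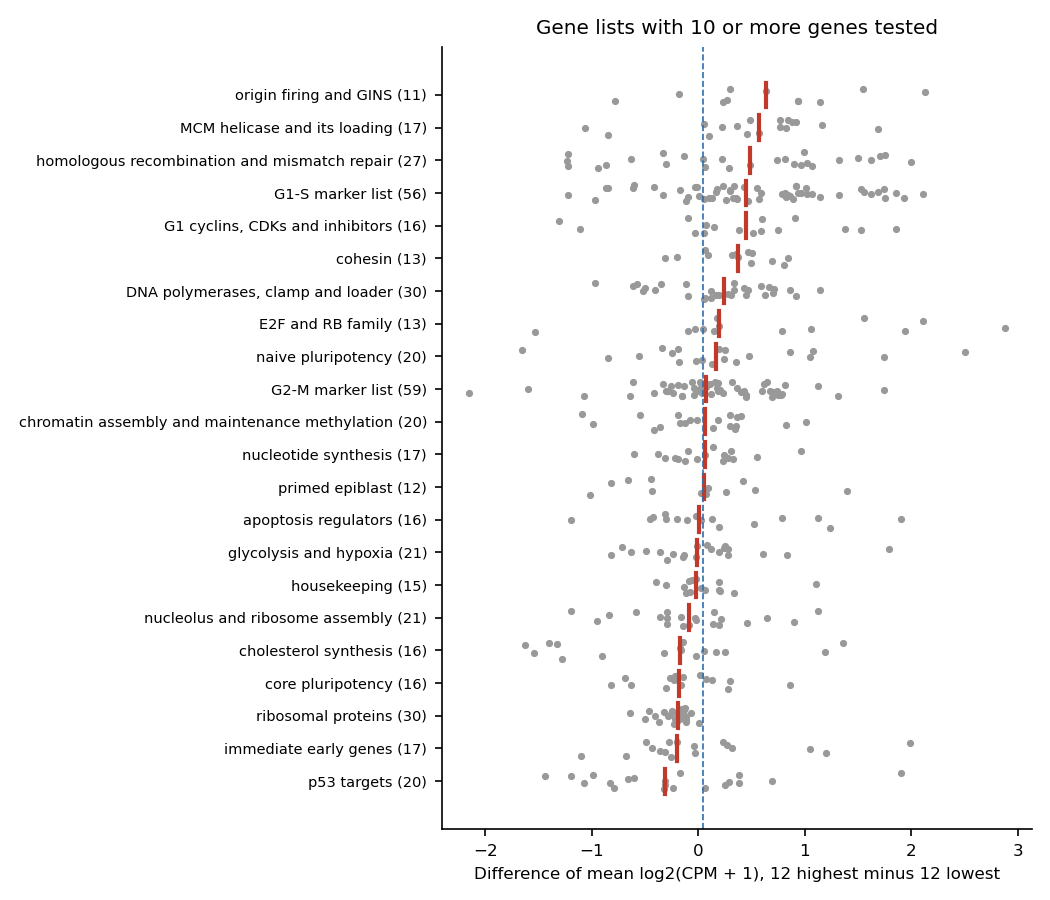
Difference of mean log2(CPM + 1), 12 high minus 12 low cells, for members of each gene list with at least 10 genes tested (1 point per gene, red bar the list's median, dashed line the median of all genes tested). Origin firing and helicase genes lie highest by their median, at 0.63 and 0.57, and p53 targets lowest at -0.31.

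Further lists had few or no called members. Glycolysis (21 tested), housekeeping (15), nucleolus (21), apoptosis (16), immediate early genes (17) and p53 targets (20) had 0 called in either direction, with medians from -0.31 to 0.00 (that of apoptosis was -0.09 with TMMwsp scaling). Cholesterol synthesis had 1 of 16 called lower, beside 0.843% of all genes tested. The list median was -0.17, with 11 of 16 below 0, where 52.2% of all genes tested were above 0. The called gene was Fdft1, the squalene synthase, with medians of 61.3 CPM in high and 176 CPM in low cells (-1.54, low cell above in 119 pairs). Its call held in 13 of 19 alternatives. It ended with 8 or 17 cells per set, at 90% of pairs, and with any 1 score gene left out of the score.

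The comparison was repeated with 1 score gene at a time left out of the score. Without Mcm2, 9 high and 10 low cells stayed in their sets, and 66 of the 140 and 24 of the 95 genes were called again. Without Mcm4 the sets kept 10 and 9 cells, with 1 cell moving to the other end, and 38 and 30 genes. Without Cdc6 they kept 8 and 9 cells, and 25 and 36 genes. The G1-S list had 1 called member without Cdc6, and its median fell to 0.22 with 36 of 56 above 0. Most single genes called in this comparison were thus not called again after 1 score gene was left out, which also exchanged cells. Ranking by all 3 genes in lane 1 alone kept 11 high and 12 low cells. With values from lane 2, 79 and 69 genes were then called again. Whether the score gene or the exchanged cells account for the losses was not tested. The median of the G1-S list stayed above 0 with each of these scores. They share genes and most cells with the full score, so this is no independent evidence. With a pseudocount of 10 CPM, which weighs sparse genes less, Brf1, Col4a1, E2f1, Gtf3a, Ndufab1, Neil3 and Uhrf1 were among those that lost their calls. With differences taken between medians Mcm10 lost its call, with cells thinned to equal depth E2f1 did, and after centring by length Ndufab1 and Uhrf1 were among those that did. Manf and Esyt2 kept their calls in all 19 alternatives and without any single cell. Both were chosen by their share of pairs in these same cells, and some alternatives only loosened the rule, so this is no independent evidence.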

How the data were processed

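The measurements are read counts per gene from 48 single cells, each sequenced on 2 lanes. The authors deposited them as unnormalized whole-number counts, 23284 rows in all. Tools listed in the submitters' processing notes are Subread 1.4.5-p1, featureCounts and STAR 2.3.1z12, beside the build mm9, and their roles are not given there. Promoter sequences are RefSeq's of GRCm38.p6 and serve as sequences only, since counts are by gene symbol. The amplification kit does not mark strand, so antisense partners cannot be told apart. There were 25 rows named like dates, with 0.660% of reads, and they were kept.

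Lanes were summed and scaled to CPM by the cell's total over gene rows, and a pseudocount of 1 CPM was added before log2. The rule for the sets and for a call is given with the results. All cells are 1 group, so no test was made, and spreads are between cells of 1 sample. No p-value was computed and no doublet caller was run. Reads carry no molecular identifiers, so intervals cover counting error only. The members and gene lists were chosen with earlier results of these data known. Genes named were the score genes, the 12 called genes in each direction with the largest share of pairs, up to 5 called members of each list in each direction, and the 2 members of highest level in the helicase, origin firing, G1 cyclin and G2-M lists. Some genes that entered the counts are not reported here by name. Other list members are named as examples after their values were seen. Transcript lengths are medians over GENCODE M21 transcripts of a symbol and covered 90.0% of genes tested. The scripts were tested on simulated data.

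Alternatives were 16 settings fixed with the design, 3 added after seeing the data (the count filter over 35 cells, 75% of pairs with no minimum difference, and centring by transcript length) and leaving out each of 24 cells. Scaling factors came from edgeR 4.0.16 (TMMwsp) and DESeq2 1.42.0 (poscounts) in R 4.3.3. The rest used Python 3.11.15, numpy 2.4.6, pandas 2.3.3 and scipy 1.17.1. A fixed depth of 4408953 reads served for thinned cells.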

Additional observations from a re-analysis of the deposited data

How the results depend on the processing

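Set size and the call rule moved the counts most. With 8 cells per set 451 genes were called higher and 247 lower, with 17 of the G1-S list higher and 1 of the G2-M list lower. With 17 cells per set the counts were 26, 36 and 1 (G1-S), and Neil3 turned to -0.31. A pseudocount of 10 CPM gave 63 genes lower and 3 G1-S genes higher. Without Cdc6 in the score 81 genes were called higher, with 1 of the G1-S list, and 1 G2-M gene was called lower. With no minimum share of pairs the counts were 1217, 954, 14 (G1-S) and 3 (G2-M, lower), at 90% of pairs 1, 2 and 0 (G1-S), and with 75% of pairs and no minimum difference 166 were lower. Leaving out 1 cell at a time gave 135 to 178 genes higher, 92 to 128 lower, 3 to 11 G1-S genes higher and 0 to 1 G2-M genes lower, with list medians of 0.37 to 0.67 (G1-S) and 0.05 to 0.16 (G2-M). The causes were not tested, apart from fewer or more cells and pairs where the setting itself changes them. Over the other settings the G1-S median stayed between 0.22 and 0.87. Of 30 named called genes, 28 kept their call with TMMwsp, 11 with 17 cells per set, 10 without Cdc6 in the score and 3 at 90% of pairs. No paired analysis was possible because all cells form 1 group and the result comes from no test.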

Other observations

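The 13 cells that Gata6 left out were scored with the means and SDs of the naive cells. In the 7 with at least 10 CPM of Pou5f1, scores ran from -1.08 to 0.928 (median 0.498) and the mean over the 56 G1-S genes from 5.88 to 6.83. In the 6 with less Pou5f1, scores ran from -3.75 to 0.872 (median -0.961) and the list mean from 4.31 to 6.12. Mcm2 was at 0.696 to 272 CPM, Mcm4 at 3.34 to 754 CPM and Cdc6 at 3.34 to 532 CPM over the 13 cells, which reaches lower for Mcm2 and Mcm4 than in any naive cell. In the 7 cells the score and the list mean had a Spearman correlation of 0.357 (Pearson 0.381), too few cells to read a relation from. In the 11 middle cells the score and the G2-M list mean had a Spearman correlation of -0.718 (Pearson -0.563), where all 35 naive cells gave 0.132. Scores of the middle cells span only -0.265 to 0.247, and these cells are also too few to read a relation from.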
